A study of Mus musculus with 31 samples.

Results

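10 genes that mark fat cells were followed through the gastrocnemius, a calf muscle, of mice that differed in sex, in diet and in the muscle ubiquitin ligase MuRF1. The genes are Cfd, Plin1, Adipoq, Retn, Adrb3, Pck1, Lep, Cidec, Fabp4 and Lpl. They were taken by name from a count table of 39017 genes, and all 10 of them were found and passed the filter on low counts. RNA sequencing was done on 31 libraries from different animals, and 30 of these entered 8 groups. Each sex was represented by wild-type mice and by mice without MuRF1, which the gene Trim63 encodes. Both genotypes ate chow from weaning, or were moved at 8 weeks of age to a high-fat diet with 45% fat from lard, and muscle was taken at 30 weeks in every group. The groups held 4 libraries each, except that the male and the female knockout groups on high fat held 3. The sources used here name neither the mouse strain, nor the knockout allele, nor the tissues in which it acts. The series addresses the response of muscle to fatty diet in both sexes, with and without MuRF1.

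Fat cells store triglyceride in a large droplet and release fatty acids from it when catecholamines act on their receptors. They also secrete hormones. Skeletal muscle holds few such cells, which lie between the fibres and along connective tissue, so their transcripts are a small part of the RNA of a whole muscle. Of the 10 genes, Cfd, Adipoq, Retn and Lep encode secreted proteins. Plin1 and Cidec encode proteins of the lipid droplet, Adrb3 a catecholamine receptor, Pck1 an enzyme that supplies glycerol 3-phosphate for triglyceride, and Fabp4 and Lpl proteins that carry and take up fatty acids. Fabp4 is also known from capillary endothelium and Lpl from muscle fibres, so these last genes mark fat cells less strictly than the others. In whole muscle, fewer fat cells and less RNA per fat cell cannot be told apart.

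RefSeq promoter windows (GRCm38.p6, 250 bases before to 50 after the gene start) were found for 7 of the 10 genes. The window of Adipoq is shown for the genes that moved together, that of Cfd because its levels moved most with diet in males, that of Lep because Lep did not follow the other genes, and that of Pck1 because its response to diet in knockout females was the largest of the 10. Capitals mark matches, on either strand, to CCAAT in Adipoq, to TTGCGCAA (a palindrome bound by C/EBP factors) in Lep and to TTACGTCA (an element like the cyclic AMP response element) in Pck1. The window of Cfd is in lower case because it held none of the 7 motifs searched.
Adipoq, chr16:23146286-23146585, plus strand: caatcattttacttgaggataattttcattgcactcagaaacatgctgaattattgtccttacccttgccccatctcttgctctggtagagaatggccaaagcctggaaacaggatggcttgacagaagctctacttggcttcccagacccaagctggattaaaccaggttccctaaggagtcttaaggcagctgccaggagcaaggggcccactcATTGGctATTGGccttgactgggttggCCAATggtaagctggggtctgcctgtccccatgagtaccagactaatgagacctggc
Cfd, chr10:79890603-79890902, plus strand: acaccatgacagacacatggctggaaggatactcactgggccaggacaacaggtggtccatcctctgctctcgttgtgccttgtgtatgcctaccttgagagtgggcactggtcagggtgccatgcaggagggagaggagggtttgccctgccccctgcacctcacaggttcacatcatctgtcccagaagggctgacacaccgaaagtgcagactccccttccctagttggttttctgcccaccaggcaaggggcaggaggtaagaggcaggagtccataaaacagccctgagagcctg
Lep, chr6:29059971-29060270, plus strand: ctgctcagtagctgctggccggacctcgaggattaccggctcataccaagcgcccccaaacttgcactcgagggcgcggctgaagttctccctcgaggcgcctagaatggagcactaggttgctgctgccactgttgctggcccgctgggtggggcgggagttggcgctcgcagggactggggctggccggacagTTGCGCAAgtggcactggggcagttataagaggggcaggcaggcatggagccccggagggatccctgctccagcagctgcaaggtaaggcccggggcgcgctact
Pck1, chr2:173152823-173153122, plus strand: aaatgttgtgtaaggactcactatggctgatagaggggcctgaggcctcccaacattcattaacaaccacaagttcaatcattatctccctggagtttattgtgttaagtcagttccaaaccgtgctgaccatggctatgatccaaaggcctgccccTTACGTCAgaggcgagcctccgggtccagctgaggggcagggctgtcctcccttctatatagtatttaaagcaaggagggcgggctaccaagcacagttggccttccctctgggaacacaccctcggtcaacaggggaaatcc
In Lep the match to TTGCGCAA began 55 bases before the start, and 0.183% of 32851 promoter windows held these letters. In Pck1 the match to TTACGTCA began 93 bases before the start, against 0.499% of windows. Adipoq held 3 matches to CCAAT, which began 34, 27 and 7 bases before the start, and 37.4% of windows held at least 1. The other motifs searched were TGACGTCA, in 1.79% of windows, TATAAA, in 13.6%, GGGCGG, in 35.7%, and the direct repeat of AGGTCA with 1 base between (bound by nuclear receptors), in 0.0396%. GGGCGG was matched 98 bases before the start of Lep and 16 before that of Pck1. None of the windows of the 7 genes matched TGACGTCA, TATAAA or the direct repeat. TGACGTCA and TTACGTCA differ by a single letter. A match is a description of the letters and not a bound site.

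Depth and labels were checked first. Total counts ran from 9342028 to 14919379 per library, so that 3 counts stand for 0.201 to 0.321 CPM (counts per 1000000 counts of the library). Trim63 lay between 0.47 and 6.24 CPM in knockout libraries and between 108.5 and 253.6 in wild-type libraries. Ddx3y, a gene of the Y chromosome, lay between 30.29 and 55.76 CPM in males and reached 0.76 CPM at most in females. 10 genes of fast muscle fibres summed to between 150007.5 and 212624.4 CPM. Several libraries stand apart. For 4 libraries the record's title and its description name animals of different groups, and the described animal was followed. These are the libraries numbered 4 of chow-fed females of either genotype and of wild-type females on high fat, and male knockout high fat 3. By Trim63 all 4 had the genotype of the described animal and not that of the title. By Ddx3y male knockout high fat 3, titled female wild type chow, was male. Grouping by the titles thus mixes genotypes within groups, and calls lost under it are to be read with that limit. Krt10, a gene of the epidermis, was at 23.75 CPM in female wild type chow 3 and reached 47.38 CPM in the female knockout chow group, where replicates 1 and 3 were high, against 2.82 CPM at most in the other 27 libraries. Of these 3, female knockout chow 3 also held the highest values of most genes studied. Male knockout high fat 3 had values like those of male chow libraries for Cfd and for the ratio of Lep to Adipoq. Trim63 was lower than in other wild-type libraries, at 108.5 to 130.1 CPM, in female wild type high fat 4 and in wild types on chow in male library 3 and female library 1. These settings were followed for the 10 genes alone. Each call of theirs that ends without the libraries high in Krt10 or without those low in Trim63 is given with that value. The same holds for calls that end without male knockout high fat 3 or with libraries grouped by their own titles.

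Levels per kilobase of transcript (CPM divided by the length of the principal transcript) put Lpl first, with a median over the 30 libraries of 150.0, and Fabp4 second, with 138.0. Their ranges over libraries, 106.0 to 238.0 for Lpl and 62.7 to 223.0 for Fabp4, overlapped. Cfd followed at 46.1, Adipoq at 14.5, Cidec at 5.95, Retn at 4.35, Lep at 3.04, Plin1 at 2.94, Pck1 at 2.15 and Adrb3 at 0.368. From Cidec to Pck1 the neighbours in this order did not differ beyond their spread over libraries. The order also changed with the group. In male chow wild types the median of Cfd per kilobase was 12.0 and that of Adipoq 9.98, and in female chow wild types the values were 114.0 and 29.5. Adrb3 had 10 or more counts in 17 of 30 libraries and 0 counts in 1, and every other gene except Retn, with 29 libraries, reached 10 counts in all 30.

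The span over libraries differed between the genes. The highest library was 105.1 times the lowest for Retn, 68.4 times for Cfd, 40.0 times for Plin1, 27.4 times for Pck1, 20.6 times for Adipoq, 12.2 times for Cidec, 9.5 times for Lep, 3.6 times for Fabp4 and 2.2 times for Lpl. 8 of the 10 genes were highest in a single library, female knockout chow 3, which also had the highest Krt10. Male knockout chow 2 was the lowest for 6 of them.

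**Figure D1:**
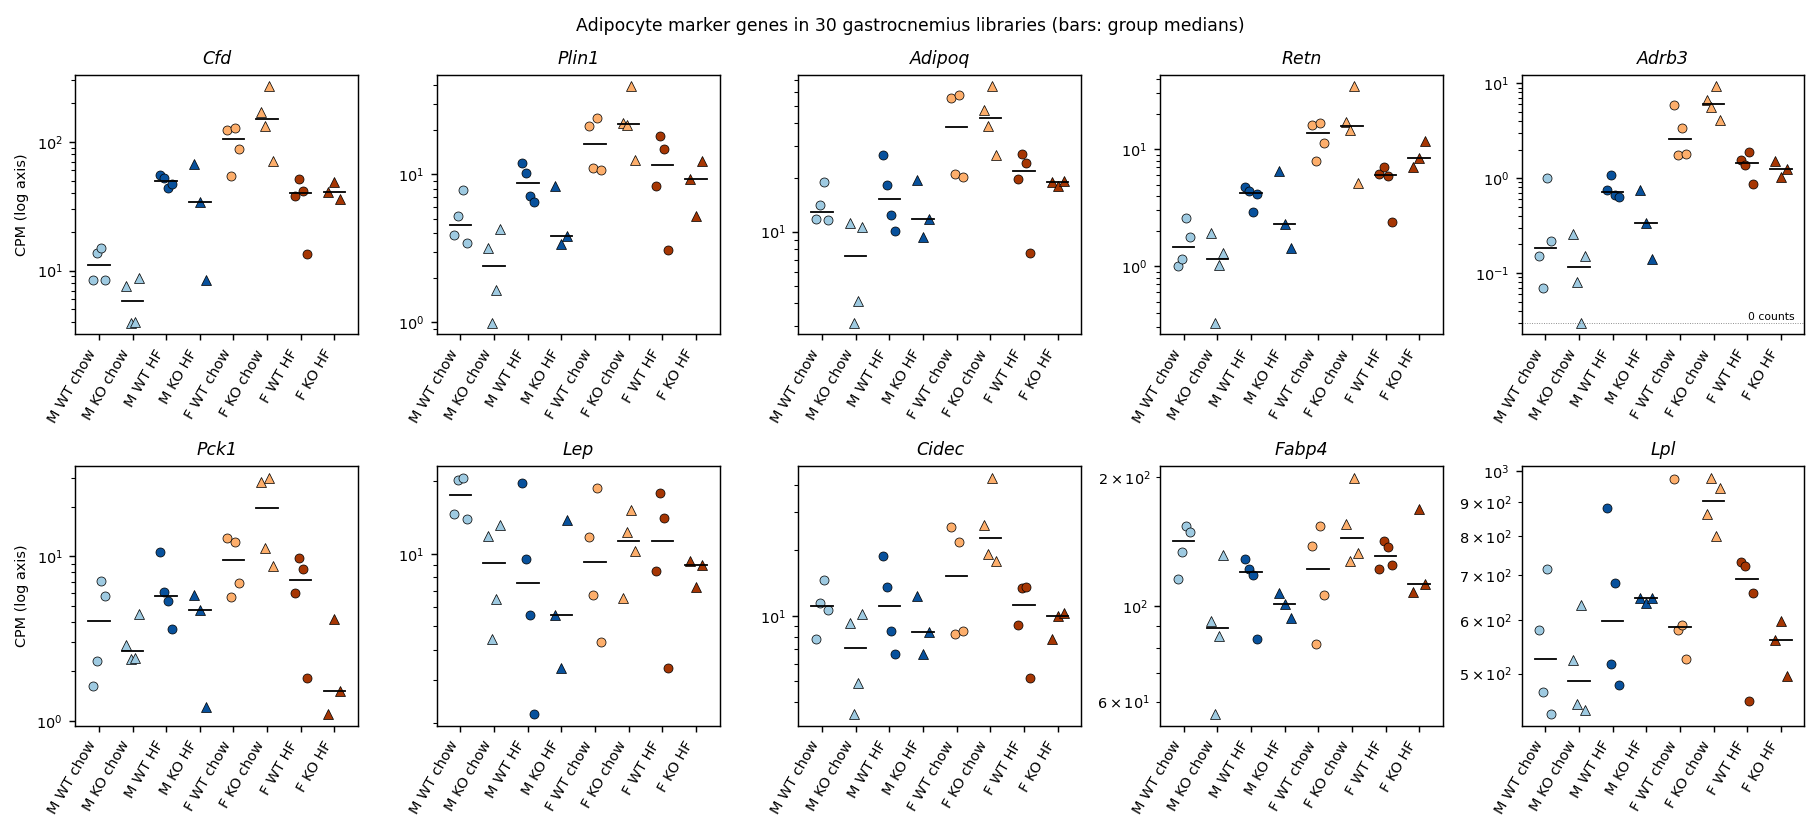
CPM (log axis) of the 10 genes in each of the 30 libraries, by group (M male, F female, WT wild type, KO knockout, HF high fat, circles wild type, triangles knockout, bars group medians). Cfd runs from 3.94 to 15.04 CPM in male chow libraries and from 53.94 to 269.6 in female chow libraries, while the Lep and Fabp4 ranges of the sexes overlap, and the Adrb3 library with 0 counts is drawn on the dotted line.

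The test was edgeR's quasi-likelihood test over all 14024 genes that passed the filter, and a gene passed a comparison at a Benjamini-Hochberg adjusted p below 0.05. Errors after ± on log2 values are standard errors. On chow, females stood above males. In wild types 5 of the 10 genes rose in females and 0 fell, where 12% of all genes passed and 6.53% were higher. They were Cfd, Plin1, Adipoq, Retn and Adrb3. In knockouts 9 of 10 rose and 0 fell, where 42.6% of genes passed and 23.5% were higher, and Lep was the exception at 0.01 ± 0.53. The median log2 fold change of the 10 genes was 1.21 in wild types and 2.34 in knockouts, beside medians over all genes of -0.001 and 0.035. On high fat 0 of 10 passed between the sexes in wild types, with 12.5% of genes passing, and 0 in knockouts, with 13.4%. At an unadjusted p below 0.05 there were 0 and 2 genes, and DESeq2 called 0 in both. Without the 3 libraries high in Krt10 the counts on chow were 3 in wild types and 5 in knockouts. Averaged over genotype and diet, 5 of 10 were higher in females, where 30.8% of genes passed and 17.4% were higher.

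Diet effects that passed were falls in females and a rise in males. In female wild types 3 of 10 fell on high fat and 0 rose, where 25.4% of genes passed and 12.5% were lower. In female knockouts 4 fell and 0 rose, where 19.2% passed and 8.79% were lower. Without the libraries high in Krt10 both counts were 0, and without those low in Trim63, or with libraries grouped by their own titles, the count in wild types was 0. In male knockouts 1 rose, Cfd, where 5.83% passed and 4.01% were higher. In male wild types 0 passed by edgeR, where 0.349% of genes passed, although 2 had an unadjusted p below 0.05 and DESeq2 called 1. The difference between the diet effects of the sexes was itself tested, averaged over genotype. It was lower in females for 7 of 10 genes and higher for 0, where 45.2% of genes passed and 23.6% were lower. The 7 were Cfd, Plin1, Adipoq, Retn, Adrb3, Pck1 and Cidec, and the median over the 10 genes was -1.62 beside -0.033 over all genes. Averaged over the sexes, 0 of 10 changed with diet, where 0.827% of genes passed, with 1 gene at an unadjusted p below 0.05 and 0 by DESeq2. A sex-dependent diet effect was thus common among all genes, and the count of 7 is read against that background.

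None of the 10 genes passed for loss of MuRF1. In male chow mice 0 passed, where 6.95% of all genes did, with 1 gene (Fabp4) at an unadjusted p below 0.05. On high fat 0 passed in males, where 0.264% of genes did, and 0 had an unadjusted p below 0.05. In females 0 passed on chow, where 0.0927% of genes did, with 2 genes at an unadjusted p below 0.05. On high fat 0 passed in females, where 0.0713% of genes did, with 1 gene (Pck1) at an unadjusted p below 0.05. The average genotype effect had 0 of 10, where 4.39% of genes passed and 0 members had an unadjusted p below 0.05. Neither the dependence of the genotype effect on diet, with 0 of 10 beside 0.107% of genes, nor that on sex, with 0 of 10 beside 0.0285%, passed for any member, with 1 and 3 members at an unadjusted p below 0.05. DESeq2 called 0 members in all 7 of these genotype comparisons. 9 of the 10 estimates lay below 0 in male chow mice, with a median of -0.63, and 10 of 10 lay above 0 in female chow mice, with a median of 0.43. The medians over all genes were -0.023 and -0.002. Most of the 10 genes vary together between libraries, so these signs are not independent of each other, and their agreement was not tested.

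**Figure D2:**
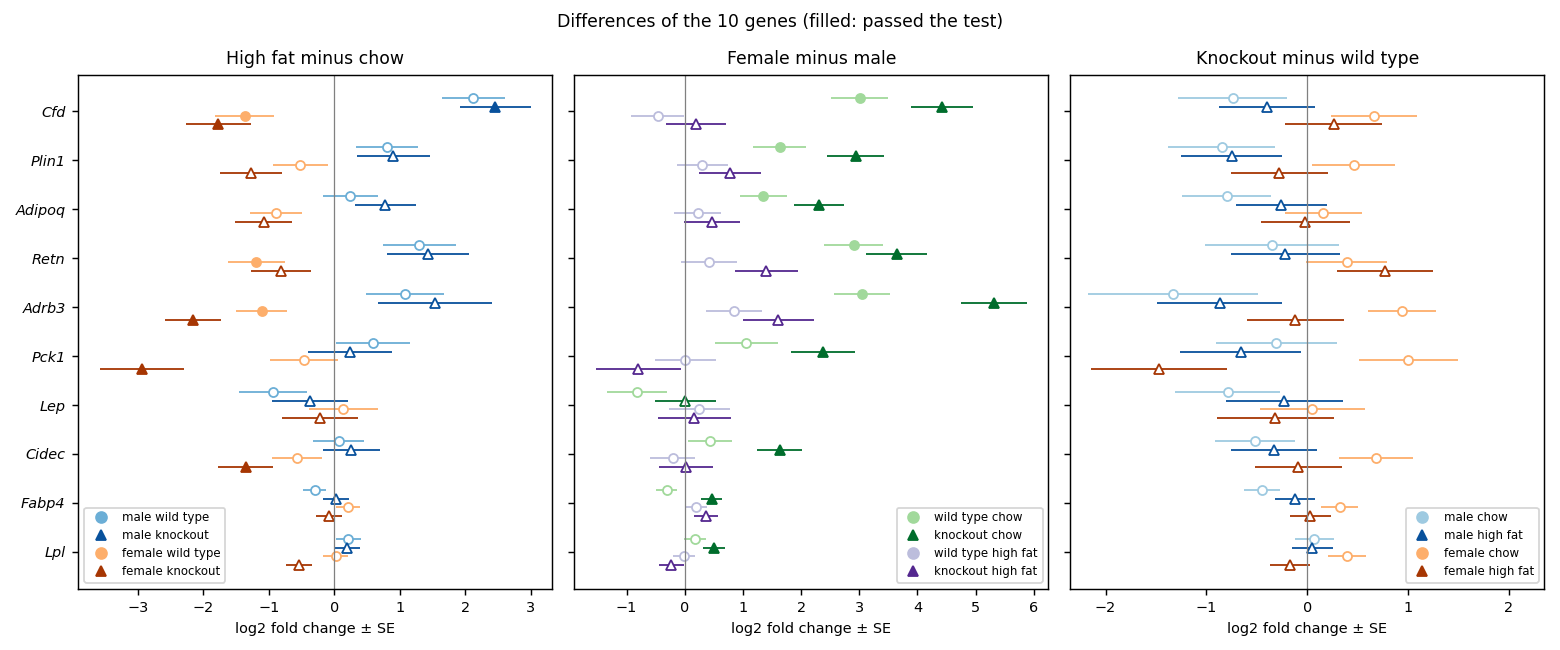
Log2 fold changes (x axis, ± standard error) of the 10 genes for high fat minus chow, female minus male and knockout minus wild type, 4 strata each, and filled points passed the test. Cfd lies at 2.12 and 2.46 for diet in males and at -1.37 and -1.77 in females, and no point is filled in the genotype panel.

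Among the secreted proteins, Cfd encodes adipsin, a serine protease of the alternative complement pathway (ENSMUSG00000061780, chr10:79890853-79892655, plus strand, mm10). In male chow mice Cfd was at 8.48, 13.64, 15.04 and 8.38 CPM in wild types and at 7.55, 3.94, 3.99 and 8.81 in knockouts. In male mice on high fat it was at 55.16, 52.56, 43.42 and 46.70 CPM in wild types and at 66.76, 34.05 and 8.42 in knockouts. Every male library on high fat but male knockout high fat 3 exceeded every male library on chow. In female chow mice Cfd was at 123.2, 53.94, 129.0 and 87.47 CPM in wild types and at 170.6, 132.2, 269.6 and 71.32 in knockouts. In females on high fat it was at 37.94, 51.79, 41.64 and 13.41 CPM in wild types and at 40.94, 48.76 and 35.81 in knockouts. All 7 female libraries on high fat lay below all 8 on chow. By mean, the chow groups of females stood first, with knockouts at 161.0 ± 83.2 CPM and wild types at 98.4 ± 34.9 (SD, n = 4 each). The high-fat groups followed, with male wild types at 49.5 ± 5.36 (n = 4), female knockouts at 41.8 ± 6.52 (n = 3), male knockouts at 36.4 ± 29.2 (n = 3) and female wild types at 36.2 ± 16.3 (n = 4). The chow groups of males came last, with wild types at 11.4 ± 3.46 and knockouts at 6.07 ± 2.49 (n = 4 each). The 4 groups on high fat, in the middle of this order, did not differ beyond their spread.

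On the log2 scale Cfd was higher on high fat by 2.12 ± 0.48 in male wild types, with an adjusted p of 0.0517 by edgeR, just outside the threshold. In male knockouts it rose by 2.46 ± 0.54, or 5.50-fold (adjusted p = 0.0133 by edgeR). In females it fell by 1.37 ± 0.45 in wild types (adjusted p = 0.0284) and by 1.77 ± 0.50 in knockouts (adjusted p = 0.0181). The diet effect was 3.86 ± 0.49 lower in females than in males (adjusted p = 5.71e-06), the largest such difference of the 10 genes. On chow Cfd was 8.07-fold higher in females among wild types (adjusted p = 0.000314) and 21.4-fold higher among knockouts (adjusted p = 1.72e-06). Without male knockout high fat 3 the adjusted p for male wild types was 0.0141 and the log2 fold change for male knockouts 2.92 ± 0.46. The call in male knockouts was lost without male knockout chow 2 (adjusted p = 0.0573), male knockout chow 3 (0.0506) or male knockout high fat 1 (0.135). Without the 3 libraries high in Krt10 the fall in females was 1.22 in wild types (adjusted p = 0.0748) and 1.14 in knockouts (adjusted p = 0.223), while the difference between the sexes stayed at -3.46 ± 0.50 (adjusted p = 8.74e-05). In wild types the fall was 0.98 without the libraries low in Trim63 (log2 difference -0.98, adjusted p = 0.159) and 0.57 with libraries grouped by their own titles (log2 difference -0.57, adjusted p = 0.516). Leaving out female wild type chow 1 or 3, or female wild type high fat 3 or 4, also ended the call in female wild types (adjusted p from 0.0595 to 0.0779), and leaving out female knockout chow 3 or female knockout high fat 2 or 3 ended it in female knockouts (0.0537 to 0.0879).

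Adipoq encodes adiponectin, a hormone made by fat cells. Its group means on chow were 14.1 ± 3.35 CPM in male wild types and 7.24 ± 4.20 in male knockouts, and 38.5 ± 20.8 in female wild types and 44.2 ± 15.8 in female knockouts (SD, n = 4 each). On high fat they were 16.8 ± 7.39 and 13.5 ± 5.29 in males and 19.6 ± 8.61 and 18.7 ± 0.616 in females, in the same order of genotypes (n = 4 and n = 3). The 2 highest female wild type chow libraries, at 55.38 and 57.56 CPM, were well above the other 2, at 20.95 and 20.14. Adipoq was 2.56-fold higher in females among chow wild types (adjusted p = 0.0313 by edgeR) and 4.97-fold higher among chow knockouts (adjusted p = 0.000226). The first of these calls was lost without the libraries high in Krt10 (adjusted p = 0.135), without those low in Trim63 (0.0531), with libraries grouped by their own titles (0.151), and without any 1 of male wild type chow 1, 2 and 4 and female wild type chow 1 and 3 (0.0699 to 0.123). In no diet stratum did it pass, yet the diet effect was lower in females, with a log2 difference of -1.5 ± 0.43 (adjusted p = 0.0074 by edgeR). Without the libraries high in Krt10 the adjusted p of that difference was 0.0476.

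Retn encodes resistin, which fat cells secrete in mice. In male chow mice it lay between 0.33 and 2.57 CPM, the lowest value being 4 counts, and in males on high fat between 1.44 and 6.47. In female chow mice Retn was at 16.27, 7.90, 16.79 and 11.32 CPM in wild types and at 17.00, 14.49, 34.50 and 5.15 in knockouts. In females on high fat it was at 6.18, 7.00, 5.95 and 2.40 CPM in wild types and at 7.03, 8.36 and 11.70 in knockouts. Wild types on the 2 diets did not overlap, and knockouts did. Retn fell on high fat in female wild types by 1.19 ± 0.44 on the log2 scale (adjusted p = 0.0475 by edgeR), a call that ended in 22 of 30 fits without 1 library, with adjusted p up to 0.121. The value was -1.06 without the libraries high in Krt10 (adjusted p = 0.0764), -0.85 without those low in Trim63 (0.22) and -0.74 with libraries grouped by their own titles (0.397). On chow it was 7.48-fold higher in females among wild types (adjusted p = 0.000523) and 12.5-fold higher among knockouts (adjusted p = 1.41e-05). The sex difference of the diet effect was -2.37 ± 0.52 (adjusted p = 0.000936), and it was -1.88 ± 0.47 without the libraries high in Krt10.

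Of the droplet proteins, Plin1 coats the droplet and gates its breakdown, and Cidec makes droplets fuse. Plin1 had means of 5.09 ± 2.01 CPM in male wild types and 2.52 ± 1.49 in male knockouts on chow, against 16.8 ± 6.95 and 23.9 ± 11.2 in females (SD, n = 4 each). On high fat the means were 8.93 ± 2.55 and 5.15 ± 2.72 in males and 11.1 ± 6.74 and 8.90 ± 3.52 in females (n = 4 and n = 3). All 8 female chow libraries, at 10.62 to 39.38 CPM, lay above all 8 male ones, at 0.99 to 7.87. The female excess on chow was 3.09-fold in wild types (adjusted p = 0.0206 by edgeR) and 7.66-fold in knockouts (adjusted p = 6.81e-05). The wild-type call was lost without the libraries high in Krt10 (adjusted p = 0.0763), with libraries grouped by their own titles (0.134) and without any 1 of male wild type chow 1, 2 and 4 and female wild type chow 3 (0.0522 to 0.0784). The sex difference of the diet effect was -1.74 ± 0.48 (adjusted p = 0.00544) and, without the libraries high in Krt10, -1.40 ± 0.49. Cidec followed with smaller steps. Its means were 11.1 ± 2.82 and 6.99 ± 3.26 CPM in male chow wild types and knockouts, and 16.0 ± 8.98 and 26.6 ± 11.6 in female ones. The female excess of Cidec on chow was 3.09-fold in knockouts (adjusted p = 0.00211 by edgeR), and 1.13 on the log2 scale without the libraries high in Krt10 (adjusted p = 0.067). In female knockouts Cidec fell on high fat by 1.35 ± 0.42 (adjusted p = 0.03 by edgeR), from 17.90 to 43.22 CPM on chow to between 7.80 and 10.28. This fall was lost without the libraries high in Krt10, at -0.85 (adjusted p = 0.282), and without any 1 of female knockout chow 1 and 3 and female knockout high fat 1, 2 and 3 (0.0559 to 0.136). Its sex difference of the diet effect, -1.13 ± 0.41 (adjusted p = 0.0279), was also lost without the libraries high in Krt10 (-0.79, adjusted p = 0.139), without those low in Trim63 (-0.93, 0.0609), with libraries grouped by their own titles (-0.93, 0.082), and without any 1 of female knockout high fat 1, the 2 male high-fat libraries numbered 1 and female wild type chow 1 (0.0517 to 0.0692).

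Adrb3 encodes the beta-3 adrenergic receptor, through which catecholamines start lipolysis in mouse fat cells (ENSMUSG00000031489, chr8:27225776-27250616, minus strand, mm10). It was the lowest of the 10 genes. In male chow mice Adrb3 was at 0.15, 0.07, 1.01 and 0.22 CPM in wild types and at 0.26, 0.08, 0.00 and 0.15 in knockouts, most of them at or under the level of 3 counts. In female chow mice it was at 5.88, 1.76, 3.40 and 1.80 CPM in wild types and at 6.65, 5.59, 9.28 and 4.13 in knockouts. All 8 female libraries lay above all 8 male ones. On high fat males had 0.14 to 1.07 CPM and females 0.86 to 1.89. The female excess on chow was 3.04 ± 0.48 on the log2 scale in wild types (adjusted p = 9.75e-05 by edgeR) and 5.31 ± 0.57 in knockouts (adjusted p = 5.16e-08). Because the male counts are so low, these fitted values depend on few reads. Adrb3 fell on high fat by 1.11 ± 0.39 in female wild types (adjusted p = 0.0384) and by 2.16 ± 0.43 in female knockouts (adjusted p = 0.00261), and the sex difference of the diet effect was -2.94 ± 0.60 (adjusted p = 0.000301). In female wild types the value was -0.5 without the libraries low in Trim63 (adjusted p = 0.324) and -0.27 with libraries grouped by their own titles (adjusted p = 0.806). Without 1 library it was -0.64 at its smallest, and the call was lost without female wild type chow 1 or 3 or any 1 of the 4 female wild type high fat libraries (adjusted p from 0.0525 to 0.25). Without the 3 libraries high in Krt10 the falls were 1.10 and 1.79, with adjusted p of 0.0791 and 0.0699. A transcript antisense to Adrb3 overlaps it in the annotation, and the sources used here do not say how the counting treated strand.

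Pck1 encodes the cytosolic phosphoenolpyruvate carboxykinase, which fat cells use to make the glycerol backbone of triglyceride (ENSMUSG00000027513, chr2:173153048-173159273, plus strand, mm10). In female knockouts on chow Pck1 was at 28.36, 11.25, 30.18 and 8.70 CPM, and on high fat at 1.10, 4.18 and 1.51. In female wild types it was at 12.91, 5.68, 12.21 and 6.91 CPM on chow and at 5.97, 9.72, 8.40 and 1.82 on high fat. The diets did not overlap in knockouts and overlapped widely in wild types. Pck1 fell by 2.94 ± 0.64 in female knockouts (adjusted p = 0.0055 by edgeR), while the value in female wild types was -0.46 ± 0.52 (adjusted p = 0.537). The difference of the genotype effect between the diets, averaged over the sexes, was -1.41 ± 0.59 with an adjusted p of 0.527 by edgeR. In females the log2 difference of knockouts from wild types was 1 ± 0.49 on chow and -1.47 ± 0.67 on high fat, and neither passed. The average includes males, and whether the genotypes differed in their diet response within females alone was not tested. In males Pck1 lay between 1.62 and 7.09 CPM on chow and between 1.22 and 10.68 on high fat. The female excess on chow was 5.19-fold in knockouts (adjusted p = 0.00155) and the sex difference of the diet effect -2.12 ± 0.59 (adjusted p = 0.00598). Without the libraries high in Krt10 the fall in female knockouts was 1.99 (adjusted p = 0.114), the female excess in knockouts on chow was 1.42 ± 0.60 on the log2 scale (adjusted p = 0.0927) and the sex difference of the diet effect was -1.57 ± 0.58 (adjusted p = 0.0406).

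Fabp4, a fatty acid carrier, and Lpl, the lipase that frees fatty acids from lipoproteins at the vessel wall, varied least. Fabp4 group means lay between 91.5 ± 31.2 CPM in male knockout chow (n = 4) and 154.0 ± 32.7 in female knockout chow (SD, n = 4). Lpl group means lay between 512.0 ± 88.9 and 897.0 ± 79.8 in the same groups (n = 4 each). Both were higher in females among chow knockouts, by 1.38-fold for Fabp4 (adjusted p = 0.0438 by edgeR) and 1.42-fold for Lpl (adjusted p = 0.0319), and neither passed elsewhere. The Fabp4 call ended in 19 of 30 fits without 1 library, with adjusted p up to 0.189, and the Lpl call in 7, with adjusted p up to 0.126. Without the libraries high in Krt10 the adjusted p was 0.429 for Fabp4 and 0.0529 for Lpl. Without the libraries low in Trim63 the adjusted p for Fabp4 was 0.0687, and without male knockout high fat 3 it was 0.062. With libraries grouped by their own titles it was 0.133 for Fabp4 and 0.307 for Lpl. In chow-fed males Fabp4 was at 116.1, 134.0, 154.0 and 149.3 CPM in wild types and at 92.68, 56.15, 85.36 and 131.8 in knockouts. All but the lowest wild-type value lay above every knockout value, and the log2 difference was -0.45 ± 0.18 (adjusted p = 0.135).

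Lep encodes leptin, the hormone that signals fat stores to the brain (ENSMUSG00000059201, chr6:29060220-29073877, plus strand, mm10). It was the only one of the 10 genes that passed in none of the 18 comparisons. In male chow mice Lep was at 14.65, 20.25, 20.65 and 13.86 CPM in wild types and at 11.85, 4.43, 6.49 and 13.17 in knockouts. In males on high fat it was at 19.69, 9.53, 5.58 and 2.17 CPM in wild types and at 5.56, 3.35 and 13.82 in knockouts. Lep thus overlapped between the diets in males, where Cfd was separated in all libraries but 1. In female chow mice Lep was at 11.76, 6.75, 18.79 and 4.31 CPM in wild types and at 6.56, 12.31, 15.21 and 10.29 in knockouts. In females on high fat it lay between 3.35 and 17.87 CPM. The sex difference of its diet effect was 0.61 ± 0.55, on the other side of 0 from those of the 7 genes that passed (adjusted p = 0.376 by edgeR).

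Lep was also set against Adipoq in the same library. The ratio of the Lep count to the Adipoq count does not depend on the number of fat cells if both come from them alone, and it was chosen as a description after the values were seen, so it is given with no test. In male chow libraries the ratio was 1.06 to 1.57 (median 1.25, n = 8), and in female chow libraries 0.139 to 0.385 (median 0.278, n = 8). On high fat it was 0.214 to 1.17 in males (median 0.453, n = 7) and 0.406 to 0.657 in females (median 0.465, n = 7). The value of 1.17 belonged to male knockout high fat 3, and the other 6 male libraries on high fat lay at or below 0.738, below every male chow library. All 7 female libraries on high fat lay above all 8 female chow libraries. Among males on high fat, 3 libraries, at 0.214, 0.286 and 0.36, lay within the range of chow females. The medians on high fat lay between those of the chow-fed sexes.

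The ratio of Cfd to Adipoq ran the other way. It was 0.677 to 1.26 in male chow libraries (median 0.817) and 2.22 to 4.34 in female chow libraries (median 3.05). In males on high fat it was 0.713 to 4.60 (median 3.43), with 0.713 in male knockout high fat 3 and 2.07 as the next lowest. In females on high fat it was 1.73 to 2.71 (median 1.91). Retn to Adipoq lay at 0.0816 to 0.245 in male chow and 0.192 to 0.562 in female chow libraries, and Adrb3 to Adipoq at 0.00763 to 0.0559 and 0.0597 to 0.156, the last with 0.5 added to each count because 1 library had none. Plin1 to Adipoq had medians of 0.351 on chow and 0.444 on high fat in males, and of 0.501 and 0.491 in females. Cidec to Adipoq had medians of 0.876 and 0.706 in males and of 0.479 and 0.535 in females. Fabp4 to Adipoq was 8.20 to 20.6 in male chow and 2.50 to 5.28 in female chow libraries. On chow the log2 difference of females from males was -0.31 ± 0.18 for Fabp4 and 1.35 ± 0.41 for Adipoq in wild types. In knockouts it was 0.46 ± 0.18 and 2.31 ± 0.43. The ratios above pool the genotypes. Plin1 to Adipoq in males on high fat was 0.444 to 0.643 in wild types and 0.323 to 0.425 in knockouts. In female chow libraries Cidec to Adipoq was 0.38 to 0.461 and 0.497 to 0.672, in the same order. Adrb3 to Adipoq was 0.0597 to 0.107 and 0.142 to 0.156 there. Retn to Adipoq in females on high fat was 0.247 to 0.316 in wild types and 0.374 to 0.608 in knockouts. For the other ratios of this paragraph the genotypes overlapped, and no genotype difference in a ratio was tested.

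**Figure D3:**
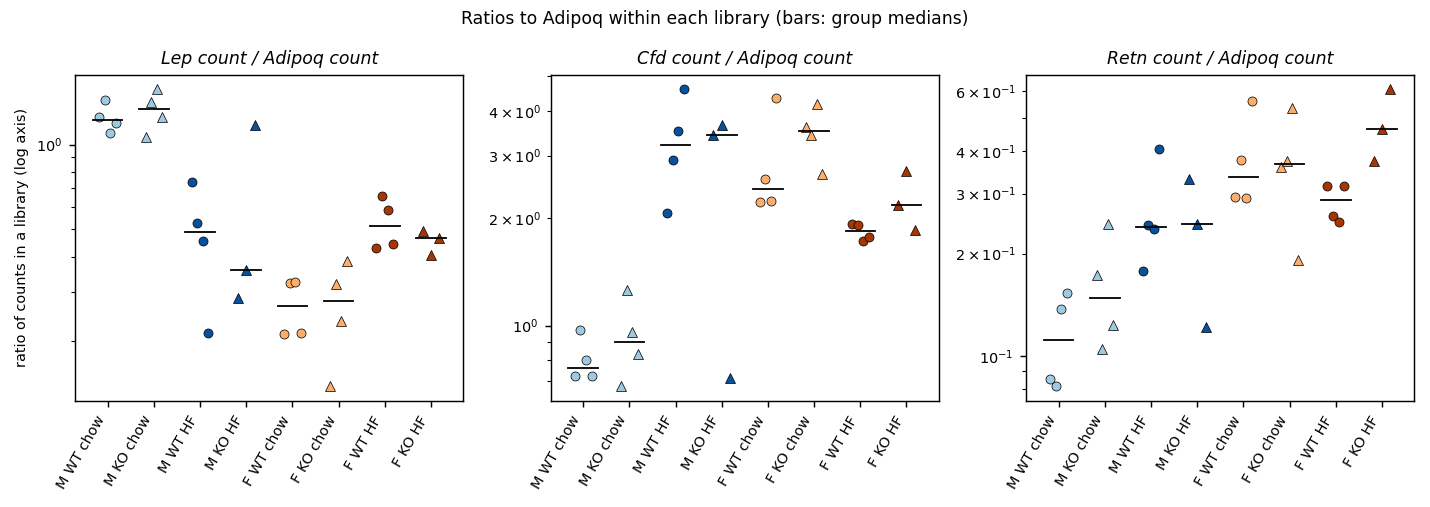
Ratio of the Lep, Cfd and Retn counts to the Adipoq count within each library (log axis), by group (M male, F female, WT wild type, KO knockout, HF high fat, bars group medians). The 8 male chow libraries lie between 1.06 and 1.57 for Lep and between 0.677 and 1.26 for Cfd, and male knockout high fat 3 lies with them at 1.17 and 0.713.

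Across the 30 libraries the other 9 genes were set against Plin1 on the log2 CPM scale, with permutation p-values (100000 resamples, two-sided) adjusted over the 9 relations. Adipoq followed Plin1 most closely, with Pearson's r of 0.953 and Spearman's rho of 0.942 (both adjusted p = 2e-05, near the smallest that the permutations can give). Retn had r = 0.901 and rho = 0.873, Cfd 0.899 and 0.859, Adrb3 0.890 and 0.876, and Cidec 0.826 and 0.762, all with the same adjusted p in the permutation test. Pck1 had r = 0.687 and rho = 0.733 (permutation p = 8e-05 and 4e-05, adjusted 0.00012 and 6e-05). For Fabp4 the values were 0.444 and 0.373 (permutation p = 0.0142 and 0.0446, adjusted 0.0183 and 0.0573). Neither Lep, at 0.250 and 0.228 (permutation p = 0.183 and 0.224, adjusted 0.183 and 0.224), nor Lpl, at 0.278 and 0.267 (permutation p = 0.138 and 0.154, adjusted 0.155 and 0.174), passed. Without the 2 libraries farthest from the Plin1 median, male knockout chow 2 and 3, r was 0.931 for Adipoq, 0.871 for Retn, 0.867 for Cfd, 0.875 for Adrb3, 0.772 for Cidec, 0.711 for Pck1, 0.223 for Fabp4, 0.178 for Lep and 0.335 for Lpl. For Fabp4 r thus fell from 0.444 to 0.223 without those 2 libraries, and the permutation test was not repeated there. The permutations ignored the groups, so their p-values also reflect differences between groups that the genes share. The libraries share groups and sex, so r was also taken within each sex and after the group means were subtracted, with no p-value. Within males and females r was 0.919 and 0.928 for Adipoq, 0.827 and 0.854 for Cfd, and 0.823 and 0.875 for Cidec. After the group means were subtracted, r was 0.907 for Adipoq, 0.847 for Cidec, 0.79 for Retn, 0.728 for Cfd and 0.649 for Adrb3. It was 0.57 for Pck1, 0.456 for Fabp4 and -0.081 for Lpl. For Lep r was 0.153 in males and 0.685 in females, and 0.677 after subtracting group means, against 0.250 without that step. Within a group, then, Lep followed Plin1, and the groups lay apart.

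**Figure D4:**
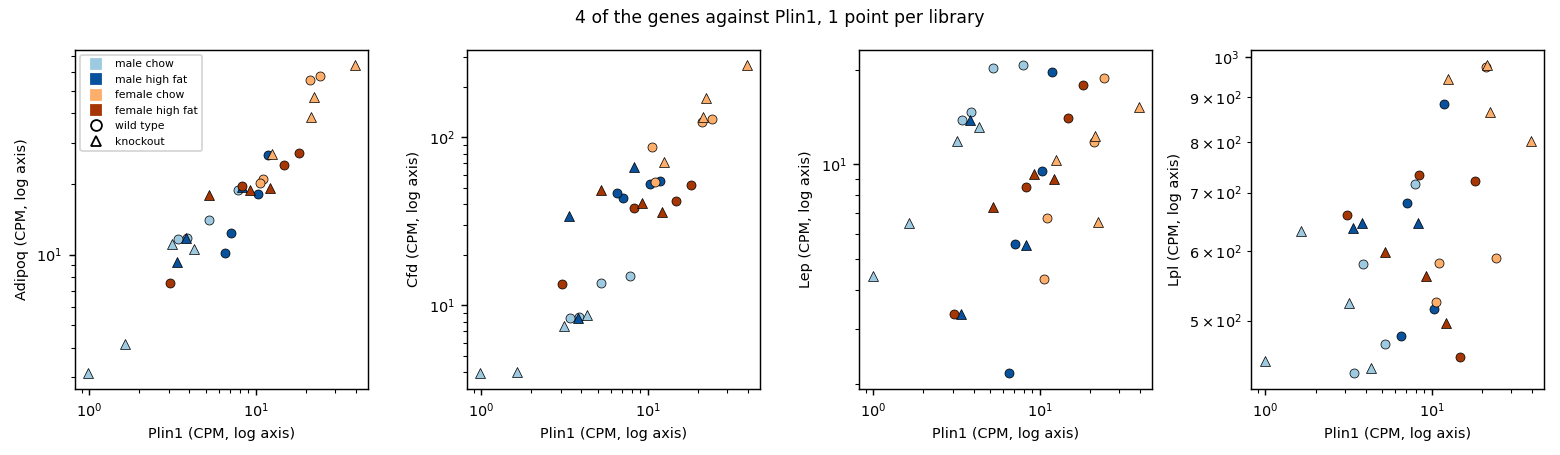
CPM of Adipoq, Cfd, Lep and Lpl against CPM of Plin1 (both axes log), 1 point per library, coloured by sex and diet with circles for wild type and triangles for knockout. Adipoq lies along 1 line for all groups (r = 0.953 on the log2 scale), while for Lep the male chow libraries lie above most others of like Plin1 level (r = 0.250).

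Likeness was ranked over 12624 other genes whose mean log2 CPM was 0 or more, and those most like the mean standardised log2 CPM of the 10 genes without Lpl, over the 30 libraries, were named as a description. Aoc3, an amine oxidase abundant on fat cells, came first with r = 0.939, then Chst1 with 0.938 and Cebpa, a transcription factor that drives fat cell differentiation, with 0.930. Lgals12, a galectin of fat cells, had 0.926, Tmem45b 0.923, Slc1a5 0.921, Dram1 0.908, Klhdc7a 0.905, Slc7a10 0.904, Smoc1 0.902, Clec11a 0.898, Slc36a2 0.890, Thbs2 0.886, Sparc 0.885 and A530016L24Rik 0.884. After the group means were subtracted, Aoc3 had 0.860, Chst1 0.907 and Cebpa 0.883. Thbs2 and Sparc encode matrix proteins of connective tissue.

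Further genes of fat metabolism were read from lists, and their counts are set beside those over all genes. The calls for genes outside the 10 come from the main fit, and how they stand without the libraries high in Krt10 is not given. Of 8 transcription factors of fat cell differentiation, 3 rose in females among chow knockouts, Cebpa by 2.08 ± 0.29 (adjusted p = 3.2e-06 by edgeR), Ebf2 by 1.78 ± 0.29 and Pparg by 1.40 ± 0.24, and 2 fell, Cebpd by 2.20 ± 0.39 and Srebf1 by 0.53 ± 0.18, where 23.5% of all genes were higher and 19.1% lower. In the sex difference of the diet effect, 21.6% of all genes were higher and 23.6% lower, which stands beside each list count that follows. Of the 8 transcription factors, 3 were lower there, Ebf2 at -1.62, Cebpa at -1.36 and Pparg at -1.05, and 1 was higher, Cebpb at 0.85. Of 10 genes of fatty acid and triglyceride synthesis tested, 6 had a lower diet effect in females and 0 a higher one, among them Acaca, the carboxylase that starts the pathway, at -1.75 ± 0.31, Fasn, the fatty acid synthase, at -2.64 ± 0.70, and Elovl6 at -2.20 ± 0.58. In chow wild types 5 of 10 were higher in females, where 6.53% of all genes were. Of 14 other fat cell genes 4 had a higher and 3 a lower diet effect in females, shares near those over all genes. Acvr1c, a receptor of the activin family found on fat cells, was lower at -2.41 ± 0.57, and Cidea and Agt were higher at 2.77 ± 0.44 and 1.18 ± 0.17. Acvr1c had under 10 counts in 15 of 30 libraries and Cidea in 10, so the values of both depend on few reads.

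Lists of lipid handling hold genes that muscle fibres also use. Of 12 droplet and lipolysis genes 7 had a higher diet effect in females and 2 a lower one, with Pnpla2, the main triglyceride lipase, at 0.78 ± 0.13 and Plin5, a droplet protein of oxidative tissue, at 2.00 ± 0.38. Of 11 fatty acid uptake genes 6 were higher and 2 lower, with Angptl4, an inhibitor of Lpl, at 3.17 ± 0.41 (adjusted p = 3.82e-06 by edgeR) and Fabp3, the carrier of muscle, at 2.24 ± 0.36. Among 4 receptors of the hormones, Lepr, the leptin receptor, had a diet effect lower in females by 2.32 ± 0.39 (log2 difference -2.32, adjusted p = 4.01e-05), and on chow it was higher in females by 1.52 ± 0.35 in wild types and 2.56 ± 0.38 in knockouts. Both adiponectin receptors passed with smaller values, Adipor2 at -0.27 ± 0.08 and Adipor1 at 0.25 ± 0.09. Ucp1, the defining gene of brown fat, had 0 counts in 28 of 30 libraries.

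Among chow wild types, 6 of 8 tendon genes, 4 of 10 progenitor genes and 5 of 12 macrophage genes were also higher in females, and 0 were lower. Of all genes, 6.53% were higher in that comparison. On the sum of 8 tendon genes female chow libraries lay at 277.9 to 592.2 CPM in wild types and 388.5 to 596.7 in knockouts. Males on chow lay at 94.28 to 208.3 and 80.83 to 128.8. 7 of the 8 tendon genes had a lower diet effect in females and 0 a higher one, with a median of -2.15, below the median of the 10 fat cell genes. The same held for 6 of 10 genes of fibro-adipogenic progenitors, the fibroblast-like cells from which fat cells in muscle arise, with a median of -0.95, and for 9 of 12 macrophage genes, with a median of -0.87. Of 10 muscle fibre genes 7 had a higher diet effect in females, with a median of 0.52, and of 9 endothelial genes 2 were higher and 3 lower. Lower diet effects in females were also found for 3 of 5 blood genes (median -1.23), 4 of 8 Schwann cell genes (-0.88), 2 of 6 mural genes (-0.43) and 1 of 7 skin genes (-5.40), with 0 higher in each. Over all genes 45.2% passed in this comparison. In male chow mice 8 of 10 progenitor genes and 9 of 12 macrophage genes were lower in knockouts, where 5.31% of all genes were, in the comparison where 9 of 10 fat cell estimates lay below 0 and none passed. Median sums there were also lower in knockouts for endothelial genes (208.2 against 392.4 CPM) and mural genes (240.0 against 502.0). The same held for tendon genes (83.23 against 178.5), Schwann cell genes (67.84 against 100.2), blood genes and skin genes. For muscle fibre genes the median was higher in knockouts, at 200824.0 against 183750.9 CPM. Apart from skin, the ranges of these sums overlapped between the genotypes. Female wild type high fat 4, the lowest of its group for Cfd and Plin1, was also lowest there for the tendon genes (73.59 CPM), the progenitor genes (565.4) and the macrophage genes (117.4). The skin genes summed to 54.23 CPM in female wild type chow 3 and to 57.31 and 113.0 in female knockout chow 1 and 3, against 5.78 at most in all other libraries. Krt5 and Krt14, which define the basal epidermis, were at 0 in 26 of 30 libraries. The part of these cells in the differences of the fat cell genes was not tested.

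**Figure D5:**
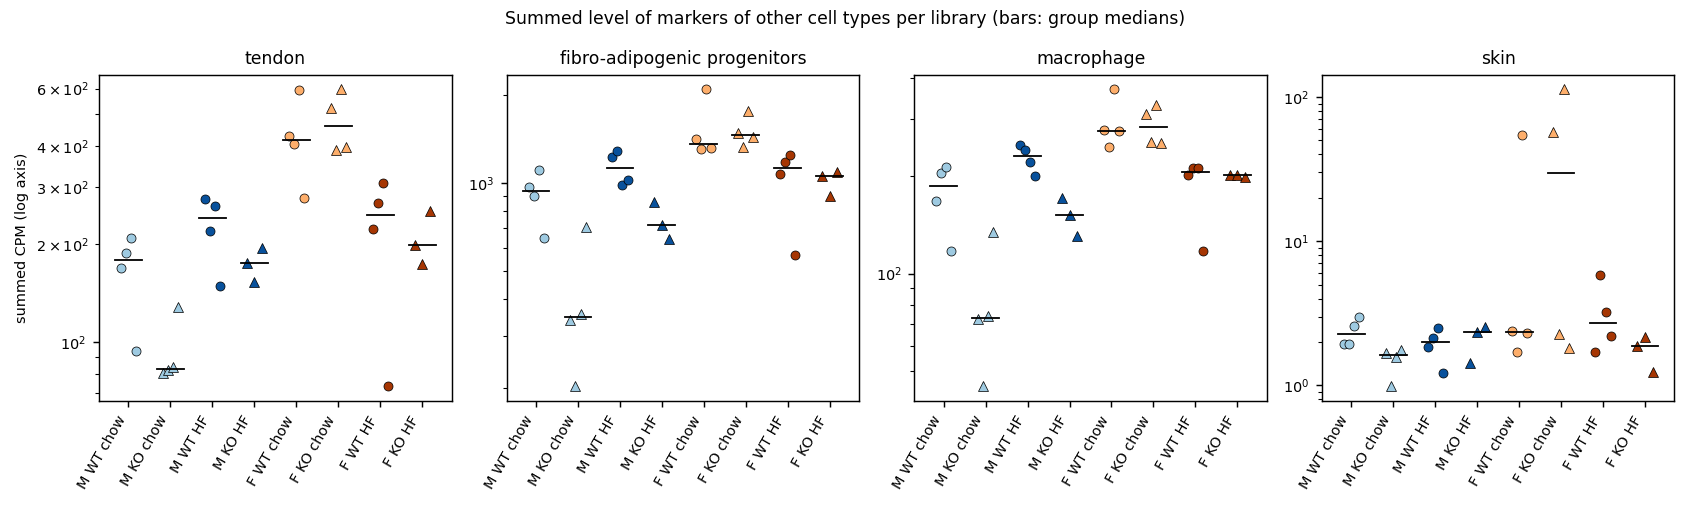
Summed CPM (log axis) of markers of tendon, fibro-adipogenic progenitors, macrophages and skin in each of the 30 libraries, by group (bars group medians). Tendon markers reach 277.9 to 596.7 CPM in female chow libraries against 80.83 to 208.3 in male chow libraries, and skin markers reach 54.23 CPM or more in 3 female chow libraries.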

How the data were processed

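RNA sequencing was done on polyA-enriched gastrocnemius RNA (integrity number above 8) with a stranded kit and 150 bp paired-end reads, per the labels' protocols. The authors deposited raw read counts per gene, 1 table per library. The build mm10 and the tools bcl2fastq and featureCounts are named in the submitters' processing notes, and the aligner, annotation and strand setting in none of the sources used here. Symbols, coordinates and transcript lengths came from GENCODE M21, which held 37693 of the 39017 identifiers.

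A library's group is that of whichever title names the animal of its description. In 19 records these animals differ, and 1 library, whose animal is in no title, was left out. The members and lists were chosen with earlier results of these data known. Counts were tested with edgeR 4.0.16 (R 4.3.3), with TMM scaling, a minimum count of 10 (filterByExpr), robust dispersion, 1 coefficient per group and 18 contrasts. Adjusted p-values are Benjamini-Hochberg within a contrast. The common dispersion of 0.0202 is a variation of 14.2% between animals. The labels give different animal numbers, and 42 pairs within groups showed no duplicate (lowest chi-square per gene 4.67). On simulated counts, 1.5-fold and 3-fold changes were recovered at 59% and 99% for diet in male wild types (13765 genes), 50% and 100% for diet in female wild types (13772), 48% and 97% for genotype in females on high fat (13796) and 59% and 97% for sex in chow wild types (13785). The simulated spread followed the trend over genes of like mean count, so these shares do not apply to members that vary more. In male wild types the 4.34-fold diet difference of Cfd did not pass (adjusted p = 0.0517 by edgeR). All 10 members are named. Other genes were named as the up to 4 with the smallest p per list and contrast, of which not all are printed, and the 15 most like the members. Alternatives were DESeq2 1.42.0, other scaling, no filter, other groupings, a replicate block and leaving libraries out. Those without the libraries high in Krt10, without those low in Trim63 and without male knockout high fat 3 were chosen after seeing the data. Permutations used scipy 1.17.1.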

Additional observations from a re-analysis of the deposited data

Results flagged for a closer look

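The diet effect differed between the sexes, by the test of that difference in edgeR, for 7 genes. The log2 differences, female minus male, were -3.86 for Cfd, -2.94 for Adrb3, -2.37 for Retn, -2.12 for Pck1, -1.74 for Plin1, -1.5 for Adipoq and -1.13 for Cidec. Over the 60 groups of 4 libraries and single genes that were examined, 2 had a library far from the other 3, and chance gives about 1 in 20. Adrb3 was at 1.01 CPM in 1 male wild type chow library against 0.22 in the next, and Lpl was at 972.8 CPM in 1 female wild type chow library against 590.1 in the next.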

How the results depend on the processing

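Of 1450 refits of the 34 member differences that passed, 1321 kept direction and call, 129 kept direction and lost the call, and 0 turned. Many of these refits left out 1 library outside the groups compared, so the share kept is no measure of how firmly the calls hold. Without the 3 libraries high in Krt10, every call for diet in females was lost. The counts of members that passed moved by over 1.5 times under the settings below, and the cause was not tested. For diet in male wild types 1 passed, in place of 0, without the robust option, in the 26 libraries whose labels give 1 group, with the library in no group added to male knockout high fat, with the 2 groups alone, without male knockout high fat 3 and by DESeq2. The library in no group had 107.1 CPM of Trim63, above every knockout library. For diet in male knockouts there were 2 in the 26 libraries and 0 with the 2 groups alone. For diet in female wild types there was 1 with no filter, in the 26 libraries and with the 2 groups alone, and there were 0 by the titles of all 31 libraries, without the 3 libraries high in Krt10 and without the 3 with Trim63 between 50 and 150 CPM. For diet in female knockouts there were 7 in the 26 libraries and with the 2 groups alone, and 0 without the libraries high in Krt10. For sex on chow there were 3 in wild types by the titles of all 31 libraries, 3 in wild types and 5 in knockouts without the libraries high in Krt10. In knockouts on high fat 1 passed between the sexes without those 3 low-Trim63 libraries, as did 1 for genotype in female chow mice. With total counts alone 8 passed for the average sex difference.

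Leaving out 1 library at a time gave 3 to 5 members for sex in chow wild types (fewest without male wild type chow 1, 2 or 4 or female wild type chow 3), 7 to 9 in chow knockouts, 0 to 2 for sex in knockouts on high fat (most without male knockout high fat 1), 0 to 1 for diet in male wild types, 0 to 1 for diet in male knockouts, 0 to 3 for diet in female wild types, 2 to 5 for diet in female knockouts (fewest without female knockout chow 3 or female knockout high fat 2 or 3), 0 to 1 for genotype in male chow mice (1 without male knockout chow 4), 6 to 8 for the sex difference of the diet effect and 5 to 5 for the average sex difference. Over the 6 other genotype comparisons, sex in wild types on high fat and the average diet effect the range was 0 to 0. In 23 of the 34 differences the call held without any 1 library.

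Replicate numbers are names here: of 43 pairs with the same number 18 correlated above 0.1 (range -0.286 to 0.457), and all pairs did so in 1 of 12 contrasts. With the replicate block 7 members passed for diet in female knockouts and 1 for sex in knockouts on high fat. All 9 relations to Plin1 kept their call with a prior count of 0.5. Depth limits Adrb3, at 3 counts or fewer in most male chow libraries.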

Other observations

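The library in no group, whose described animal is in no title, had 42.44 CPM of Cfd, 10.11 of Adipoq, 4.58 of Plin1, 4.29 of Retn, 0.86 of Adrb3 and 2.38 of Lep. Its Trim63 level was 107.1 CPM and its Ddx3y level 51.69 CPM. Its own title names male knockout high fat, yet no knockout library exceeded 6.24 CPM of Trim63.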
